A study of Homo sapiens with 6 samples.

Results

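The gelsolin family comprises actin-binding proteins built from gelsolin repeats, and 7 of its genes are described here, namely SCIN, GSN, VIL1, AVIL, SVIL, CAPG and FLII. They were taken up because SCIN was much lower on the TRIM71 arrays, so that comparison is a description for all 7 genes: their p-values are not printed, and their calls are only counted beside the share over all genes. All 7 genes were represented, by 8 probesets that the array annotation pairs with 1 gene symbol, out of 32321 probesets and 18404 genes in all. AVIL had 2 of the 8 probesets, and 1 further probeset is annotated to both SVIL and SNHG32. Levels were read on 6 Affymetrix arrays: 3 carried RNA of parental HEK293 Flp-In cells, and 3 carried RNA of Flp-In cells with constitutive FLAG-HA-tagged TRIM71. HEK293 cells are a long-established human embryonic kidney line, and TRIM71 is an RNA-binding protein of stem and progenitor cells. The medium of the TRIM71 line held hygromycin B at 50 µg/ml, so the transgene, the drug and any other difference between the lines cannot be told apart. Whether the TRIM71 line is a single clone is not given in the sources used here, nor whether the 3 arrays of a group came from separate cultures, so the spread between them may be technical.

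Actin filaments grow and shrink at their ends, and gelsolin family proteins bind to them in response to calcium, while phosphoinositides release them. Gelsolin and scinderin sever a filament and then cap its fast-growing end, CAPG caps without severing, and villin and advillin can also bundle filaments. Supervillin links filaments to membranes and myosin, and FLII joins gelsolin repeats to a leucine-rich repeat region and is known as a nuclear receptor coactivator partner as well as an actin-binding protein. Villin is a component of intestinal and kidney microvilli, scinderin is best known from secretory cells such as chromaffin cells, and advillin from sensory neurons.

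RefSeq promoter sequences on GRCh38.p14 were matched for 6 of the 7 genes, with 17 annotated start sites between them. SCIN, AVIL and FLII each had 1 start site, so their windows are free of a choice between starts, and they are shown to set the promoter of the member with the large difference beside those of relatives that differed little. Each window is the 250 bases upstream of the start, read 5′ to 3′ on the gene's strand. The SCIN window lies at chr7:12570470-12570719 on the plus strand, the AVIL window at chr12:57818735-57818984 on the minus strand and the FLII window at chr17:18258739-18258988 on the minus strand. Capitals mark every match, on either strand, to the TATA box core TATAAA, the Sp1 core GGGCGG, the ATF4 dimer core TGATGNAA or the CArG box of serum response factor.
SCIN: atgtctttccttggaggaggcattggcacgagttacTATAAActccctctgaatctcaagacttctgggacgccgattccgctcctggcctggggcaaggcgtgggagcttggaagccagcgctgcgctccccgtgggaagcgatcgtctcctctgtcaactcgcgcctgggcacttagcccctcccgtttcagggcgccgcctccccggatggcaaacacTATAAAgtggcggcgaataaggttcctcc
AVIL: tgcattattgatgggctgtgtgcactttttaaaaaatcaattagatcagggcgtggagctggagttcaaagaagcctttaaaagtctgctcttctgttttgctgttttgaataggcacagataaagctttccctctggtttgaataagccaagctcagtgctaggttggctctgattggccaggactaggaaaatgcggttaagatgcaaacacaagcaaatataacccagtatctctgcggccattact
FLII: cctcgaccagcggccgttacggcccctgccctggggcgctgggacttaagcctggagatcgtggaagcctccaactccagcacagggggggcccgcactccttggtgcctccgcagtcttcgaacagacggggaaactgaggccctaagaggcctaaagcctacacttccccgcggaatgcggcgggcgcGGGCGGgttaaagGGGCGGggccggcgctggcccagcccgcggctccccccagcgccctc

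The SCIN window held TATAAA at 2 places, starting 29 and 214 bases upstream of the start, and none of the other motifs. Of the 6 start sites of GSN, 1 also held TATAAA starting 29 bases upstream, so the motif was in 2 of the 17 windows of the family. The TATA box core was held by 10.7% of all 35116 windows of this length. The FLII window held GGGCGG starting 60 and 47 bases upstream, a motif in 42.6% of all windows and in 8 of the family's. Windows of 1 gene can overlap, and 2 of these 8, both of SVIL, hold the same match, so the 17 are not all separate sequences. The AVIL window held none of the 4 motifs. TGATGNAA was in 3.14% of all windows and in 0 of the 17 windows of the family. The CArG box was in 1.16% of all windows and in 1 of the family's, at a start site of SVIL. G and C made up 60% of the SCIN window, 42.4% of the AVIL window and 70.8% of the FLII window, with a median of 58% over all windows. The matches are matches of letters only.

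**Figure D1:**
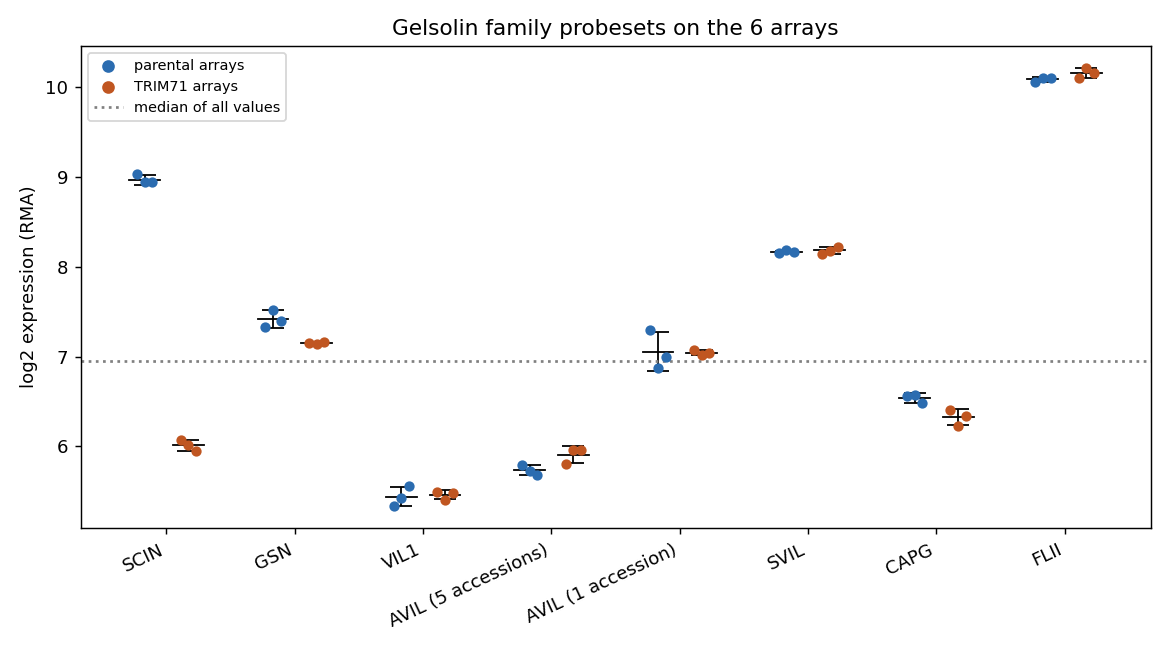
Log2 expression (RMA) of the 8 gelsolin family probesets on the 3 parental arrays (blue) and the 3 TRIM71 arrays (orange), with the mean and SD of each group in black and the median of all values, 6.95, as a dotted line. SCIN goes from 8.97 to 6.01 while the other probesets keep near their parental levels.

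SCIN encodes scinderin, a calcium-dependent severing protein also called adseverin. Its log2 expression was 9.04, 8.94 and 8.94 on the parental arrays and 6.06, 6.01 and 5.95 on the TRIM71 arrays. The parental arrays were all high and the TRIM71 arrays all low, with a gap of 2.88 log2 units between the lowest parental and the highest TRIM71 value. The spread inside a group was small beside that gap, with a range of 0.097 over the parental arrays and 0.11 over the TRIM71 arrays. The mean was 8.97 ± 0.06 in the parental line and 6.01 ± 0.06 in the TRIM71 line (SD, n = 3 each). The difference of −2.96 log2 units (SE 0.05, 95% interval −3.10 to −2.83) is a 7.80-fold lower level. Of 18404 genes, 3 had a log2 difference this low or lower, SCIN included. The TRIM71 level lay below the median of all values on the arrays, 6.95.

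GSN encodes gelsolin, the founding member of the family and the nearest relative of scinderin in function. It was read at 7.33, 7.52 and 7.39 on the parental arrays and at 7.15, 7.14 and 7.16 on the TRIM71 arrays. The TRIM71 arrays lay just below all parental arrays, and close together. The log2 difference was −0.26 (SE 0.06, 95% interval −0.41 to −0.12), or 1.20-fold lower, and 2001 of 18404 genes differed as far downwards or further. The antisense gene GSN-AS1, which has its own probeset, stood at 4.60 ± 0.07 in the parental line and 4.50 ± 0.08 in the TRIM71 line (SD, n = 3), and its groups overlapped.

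CAPG encodes the capping member of the family, which does not sever. It was dim, at 6.56, 6.58 and 6.48 on the parental arrays and 6.40, 6.23 and 6.34 on the TRIM71 arrays. The groups did not overlap, with the TRIM71 arrays lower. The log2 difference was −0.22 (SE 0.06, 95% interval −0.36 to −0.07).

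In the villin branch, differences were small. VIL1, villin, was at 5.34, 5.43 and 5.55 on the parental arrays and 5.50, 5.40 and 5.48 on the TRIM71 arrays, dim throughout and with overlapping groups. Its log2 difference was 0.02 (SE 0.07, 95% interval −0.14 to 0.18), and its sign turned when the arrays were quantile normalized again or parental replicate 1 was left out (−0.03). AVIL, advillin, had a dim probeset annotated to 5 accessions, at 5.79, 5.72 and 5.68 on the parental arrays and 5.80, 5.96 and 5.96 on the TRIM71 arrays. These groups did not overlap, although the lowest TRIM71 array and the highest parental array nearly met, and the log2 difference was 0.18 (SE 0.06, 95% interval 0.02 to 0.33). The other AVIL probeset is annotated to 1 accession and was brighter, at 7.29, 6.87 and 7.0 on the parental arrays and 7.08, 7.02 and 7.04 on the TRIM71 arrays. There the groups overlapped, with a log2 difference of −0.01 (SE 0.11, 95% interval −0.27 to 0.25), so the AVIL probesets differ in whether the groups overlap. The parental arrays of this probeset had the widest spread among the members, an SD of 0.22. VILL, the villin-like gene outside the 7, had overlapping groups at 6.41 ± 0.07 and 6.42 ± 0.11 (SD, n = 3).

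SVIL and FLII, the large members with roles beyond severing, differed little between the lines. SVIL, supervillin, was at 8.15, 8.18 and 8.16 on the parental arrays and 8.15, 8.18 and 8.23 on the TRIM71 arrays. The groups overlapped, and the log2 difference was 0.02 (SE 0.05, 95% interval −0.09 to 0.13). The probeset annotated to SNHG32 and SVIL together was lower on all 3 TRIM71 arrays, at 9.62, 9.74 and 9.75 against 10.17, 10.27 and 10.14. Its log2 difference was −0.49 (SE 0.06, 95% interval −0.64 to −0.34), and it cannot be assigned to either gene. FLII was at 10.06, 10.11 and 10.11 on the parental arrays and 10.11, 10.22 and 10.16 on the TRIM71 arrays, with groups that overlapped. Its log2 difference was 0.07 (SE 0.05, 95% interval −0.05 to 0.19). A change of the size seen in SCIN lies outside this interval, as it does for each other member probeset with 1 symbol. VIL1 (5.44), the dim AVIL probeset (5.73) and CAPG (6.54) were already low in the parental line, near the 6.01 of SCIN on the TRIM71 arrays. A fall of that size could hardly be seen there, so their intervals do not show that it was absent. The brighter AVIL probeset (7.05), GSN (7.41) and SVIL (8.17) also lay above 6.01 by less than the SCIN fall. The full fall might not be seen at these either.

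**Figure D2:**
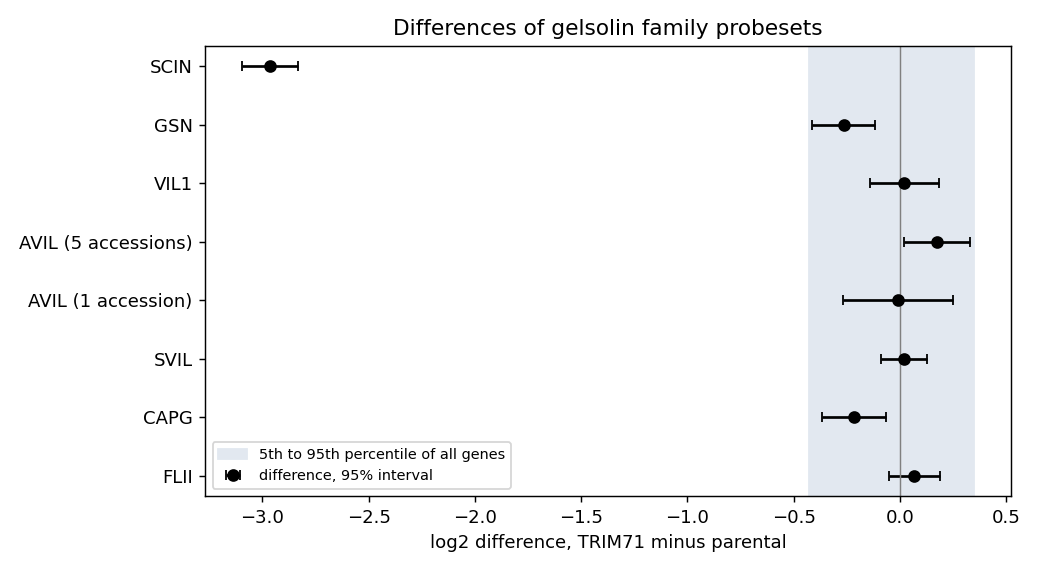
Log2 difference, TRIM71 minus parental, of the 8 gelsolin family probesets (points) with 95% intervals from the limma fit (bars). The grey band runs from −0.43 to 0.35, the 5th to 95th percentile of all genes. SCIN at −2.96 is the 1 probeset of these 8 outside it. The probeset annotated to both SNHG32 and SVIL is not drawn.

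In the fit across all 32321 probesets, 2 of the 7 genes were called lower, SCIN and GSN, 0 were called higher and 5 did not pass, against 12.2% of all genes called lower and 22.2% called in either direction (limma, Benjamini-Hochberg adjusted p under 0.05). At an unadjusted p under 0.05 in limma, 3 were lower, SCIN included, and 0 higher. The share of all genes at that unadjusted threshold is not given here. Nothing is read from these counts, because SCIN was chosen on this contrast. The GSN call ended without parental replicate 2 (log2 difference −0.21), parental replicate 3 (−0.27), TRIM71 replicate 1 (−0.26), TRIM71 replicate 2 (−0.26) or TRIM71 replicate 3 (−0.27). The groups did not overlap for 3 of the 7 genes at their brightest probeset, against 43.6% of all genes, and for 4 of the 8 probesets, against 35.2% of all probesets. The median log2 difference was −0.01 over the 7 genes and 0.005 over the 6 other than SCIN, beside −0.01 over all genes.

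The genes around the members were set beside them in RefSeq order, with the 10 nearest measured genes on each side. Around SCIN on chromosome 7 the median log2 difference of these 20 genes was −0.07, beside 0.01 over the measured genes of the chromosome. Of the 20 genes, 4 fell and 3 rose, beside 12.2% and 10% of all genes. The nearest measured gene on one side of SCIN, ETV1, an ETS family transcription factor, was at 8.14, 7.46 and 7.99 on the parental arrays and 6.64, 6.84 and 6.70 on the TRIM71 arrays. ETV1 fell by 1.13 on the log2 scale (SE 0.18, adjusted p = 0.0081), the largest fall among the 20, and its call held with each array left out (adjusted p between 0.0031 and 0.038).

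VWDE, a von Willebrand factor domain gene and the nearest measured gene on the other side, fell by 0.34 on the log2 scale (SE 0.07, adjusted p = 0.027). That call ended without parental replicate 2, parental replicate 3 or TRIM71 replicate 2 (adjusted p up to 0.094). Beyond VWDE, the lysosomal membrane gene TMEM106B (−0.29, adjusted p = 0.068) and THSD7A (−0.17, adjusted p = 0.33) did not pass. Beyond ETV1, the diacylglycerol kinase DGKB did not pass (0.14, adjusted p = 0.49). AGMO, an ether lipid monooxygenase, was dim at 3.89 ± 0.08 and fell to 3.55 ± 0.12 (−0.34, adjusted p = 0.030; SD, n = 3), a call that ended with any 1 array left out except TRIM71 replicate 1 (adjusted p up to 0.093). The part of the location in the SCIN difference was not tested.

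**Figure D3:**
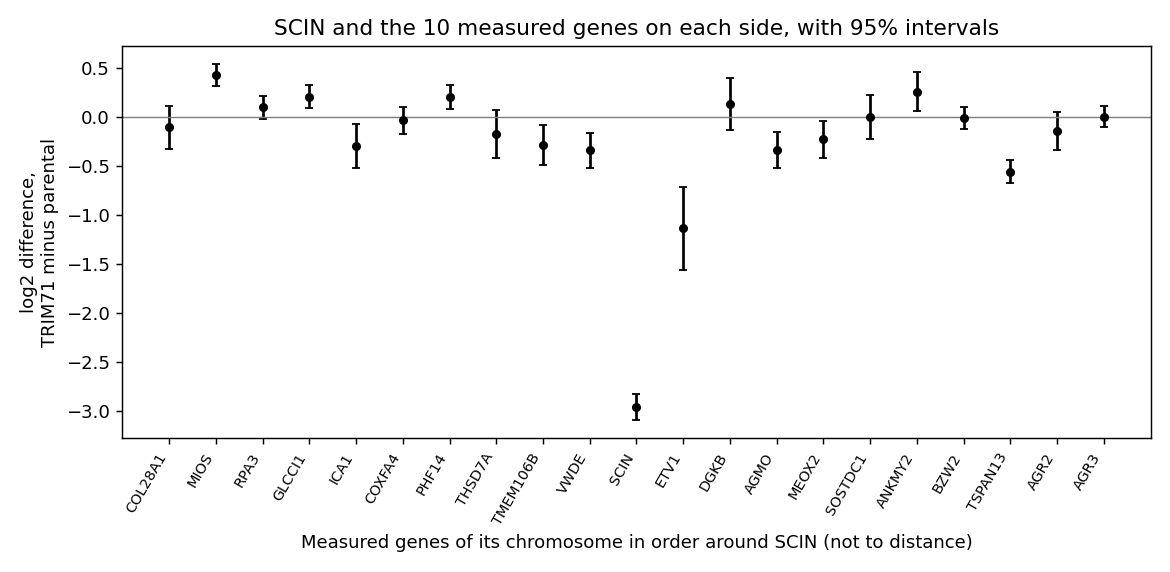
Log2 difference, TRIM71 minus parental, of SCIN and the 10 measured genes on each side of it in chromosome order (not to distance), with 95% intervals from the limma fit. SCIN at −2.96 is lowest, and its neighbour ETV1 at −1.13 comes next.

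The genes around the other members, 20 for each, are read beside the 12.2% of all genes that fell and the 10% that rose. Around GSN on chromosome 9 the median log2 difference was −0.11, with 2 that fell and 0 that rose, and the genes ranged from −0.75 to 0.08. Around FLII on chromosome 17 the median was −0.08, with 7 that fell and 1 that rose. Around AVIL on chromosome 12 it was −0.02, with 4 that fell and 2 that rose. The lowest of these was SLC16A7, a monocarboxylate transporter, which fell by 1.36 on the log2 scale (adjusted p = 0.0011, and up to 0.0090 with 1 array left out). Around SVIL on chromosome 10 the median was 0.03, with 2 that fell and 5 that rose. VIL1 and CAPG both lie on chromosome 2, whose 1154 measured genes had a median of 0.08, beside −0.01 over all genes. Around VIL1 the median was 0.06, with 1 that fell and 7 that rose. Around CAPG it was 0.06 as well, with 6 that fell and 5 that rose, and the genes ranged from −0.44 to 0.94, a range that holds the −0.22 of CAPG.

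The genes whose values over the 6 arrays were most like those of SCIN were found by the root mean square difference between profiles centred on each gene's mean. They were RAC1 at a probeset annotated to 1 transcript accession (0.27 log2 units), the inositol trisphosphate receptor ITPR3 (0.36), the peptide receptor QRFPR (0.37), the mitochondrial folate enzyme ALDH1L2 (0.37) and the axoneme gene SPAG6 (0.39). RAC1, a small GTPase that controls actin assembly, was at 10.54, 10.12 and 10.09 on the parental arrays and 7.77, 7.93 and 7.42 on the TRIM71 arrays at that probeset, which need not stand for the whole gene. RAC1 lies on chromosome 7 like SCIN, and the other 4 lie on chromosomes 6, 4, 12 and 10. Among the family, GSN was closest to SCIN at 1.35, and 1966 of 17530 genes compared were closer.

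**Figure D4:**
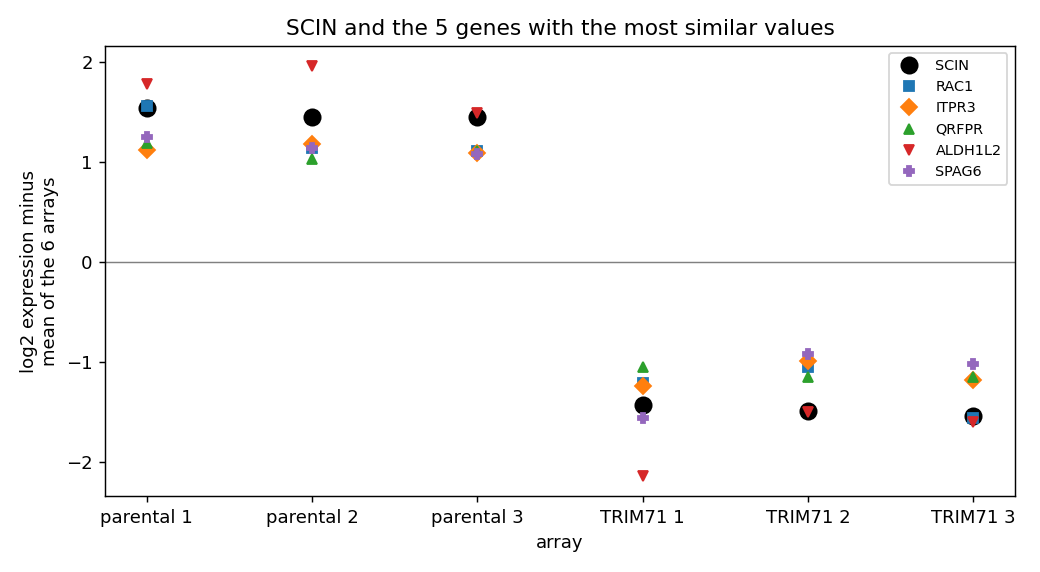
Log2 expression minus the mean over the 6 arrays for SCIN (large black circles) and the 5 genes most like it, array by array. SCIN keeps within a range of 0.097 over the parental arrays and 0.11 over the TRIM71 arrays, while ALDH1L2, SPAG6 and RAC1 scatter more.

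The rest of the actin machinery was described from 9 lists of genes, 136 of which were measured and were not among the 7. Of these, 24 rose and 14 fell, 17.6% and 10.3%, against 10% and 12.2% of all genes, and the median log2 difference was 0.02. Of the 136, 110 reached the median of all values in at least 1 group, beside 11337 of 18404 genes. In a fit without the probesets below it, 29 of these 110 rose and 15 fell, beside 2435 and 2644 of the 11337 genes. The part of brightness in the counts was not tested. The counts of each list below are read beside the same 10% and 12.2% of all genes, dim ones included. The changes were small beside that of SCIN: the largest fall was 0.72 and the largest rise 0.69 on the log2 scale. By at least 1.5-fold, 3 of the 136 (2.21%) were lower and 1 (0.735%), PIP5K1B, was higher, beside 2.71% and 1.29% of all genes. By at least 2-fold, 0 of the 136 and 154 of the 18404 genes were lower. With each array left out in turn, 10 of the 14 falls and 9 of the 24 rises were called in all 6 fits. The counts of rises moved by over 1.5 times without parental replicate 2 (9), parental replicate 3 (14), TRIM71 replicate 1 (13), TRIM71 replicate 2 (12) or TRIM71 replicate 3 (14).

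DMTN, ABLIM1, ABLIM3 and VILL were measured as relatives with a villin-type headpiece. Of these 4, 2 fell, 0 rose and 2 did not pass (median −0.13). At an unadjusted p under 0.05 in limma, 2 were lower and 0 higher, with no share of all genes given at that threshold. DMTN, the dematin that bundles actin in the red cell skeleton, was at 7.23, 7.21 and 7.19 on the parental arrays and 6.95, 6.90 and 6.92 on the TRIM71 arrays (−0.29, adjusted p = 0.0071). ABLIM1, an actin-binding LIM protein, fell by 0.28 on the log2 scale (adjusted p = 0.0099).

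Filament turnover genes, the other route to severing, mostly did not pass. Of 20 measured, 2 rose, 1 fell and 17 did not pass (median 0.02). The severing proteins themselves did not pass: CFL1, cofilin, differed by −0.11 (adjusted p = 0.18), its muscle-type relative CFL2 by 0.03 (adjusted p = 0.75) and DSTN, destrin, by 0.06 (adjusted p = 0.55). LIMK1, a kinase that inactivates cofilin, rose by 0.33 on the log2 scale (adjusted p = 0.0074), and so did SSH2, a phosphatase that reactivates it, by 0.30 (adjusted p = 0.0091). CORO1A, a coronin of filament turnover, was at 7.50, 7.46 and 7.56 on the parental arrays and 6.79, 7.02 and 6.91 on the TRIM71 arrays, and fell by 0.60 (adjusted p = 0.0034).

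End capping genes, which share the capping function of the family, went both ways. Of 22 measured, 2 rose, 2 fell and 18 did not pass (median −0.03). TMOD1, a tropomodulin that caps the slow-growing end, rose from 9.07 ± 0.06 to 9.63 ± 0.07 (0.56, adjusted p = 0.0020; SD, n = 3), and its relative TMOD3 rose by 0.24 (adjusted p = 0.028). LMOD1, a leiomodin, fell by 0.50 on the log2 scale (adjusted p = 0.0036) and EPS8, which caps and bundles, by 0.37 (adjusted p = 0.0044). The TMOD3 call ended with any 1 array left out except parental replicate 1 (adjusted p up to 0.096). CAPZB, the beta subunit of capping protein, did not pass (0.09, adjusted p = 0.23).

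Nucleation and monomer-binding genes also changed in both directions, with 5 of 30 higher, 5 lower and 20 that did not pass (median 0.01). The formin FMNL2 (0.41, adjusted p = 0.0037), the Arp2/3 subunit ARPC1B (0.41, adjusted p = 0.0049) and the formin FMN2 (0.26, adjusted p = 0.015) rose. The formins DAAM2 (−0.52, adjusted p = 0.0016) and INF2 (−0.43, adjusted p = 0.0069) fell, as did TMSB15A, a monomer-binding thymosin (−0.72, adjusted p = 0.0047), dim at 4.99 ± 0.17 and 4.26 ± 0.08 (SD, n = 3). The FMN2 call ended without parental replicate 2, TRIM71 replicate 1 or TRIM71 replicate 2 (adjusted p up to 0.062). PFN1, profilin, did not pass (−0.04, adjusted p = 0.66). The rises of this list numbered 4 without parental replicate 3, 2 without parental replicate 2 or TRIM71 replicate 2 and 3 with any other array left out, and the falls 4 without parental replicate 2 and 3 otherwise. The calls of the formin DIAPH3 (higher) and the thymosin TMSB10 (lower) ended in all 6 of these fits, that of WASF3 (higher) held in 2 and that of SPIRE1 (lower) in 1.

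Among bundling and crosslinking genes, 4 of 15 rose, 2 fell and 9 did not pass, with a median log2 difference that rounds to 0.00. FSCN1, the filopodial bundler fascin, was at 10.06, 10.04 and 10.14 on the parental arrays and 10.60, 10.64 and 10.59 on the TRIM71 arrays (0.53, adjusted p = 0.0014). DBN1, drebrin, rose by 0.41 (adjusted p = 0.0026) and SPTBN1, a spectrin, by 0.23 (adjusted p = 0.015). LCP1, the plastin otherwise typical of leukocytes, was at 11.50, 11.36 and 11.33 on the parental arrays and 10.68, 10.76 and 10.73 on the TRIM71 arrays, and fell by 0.67 on the log2 scale (adjusted p = 0.0013). ACTN2, an alpha-actinin, fell by 0.35 (adjusted p = 0.016), a call that ended without parental replicate 2 or TRIM71 replicate 1 (adjusted p up to 0.061). The SPTBN1 call ended without parental replicate 2, parental replicate 3, TRIM71 replicate 1 or TRIM71 replicate 2 (adjusted p up to 0.055).

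Of 20 actin, tropomyosin, calponin and non-muscle myosin genes, 7 rose, 1 fell and 12 did not pass (median 0.10). The tropomyosin TPM1 rose from 9.04 ± 0.13 to 9.56 ± 0.07 (0.52, adjusted p = 0.0081; SD, n = 3), the calponin CNN1 by 0.31 (adjusted p = 0.016) and the myosin heavy chain MYH9 by 0.24 (adjusted p = 0.017). MYH14, a related heavy chain, fell by 0.22 (adjusted p = 0.038). The cytoplasmic actins did not pass, with ACTB at 0.11 (adjusted p = 0.15) and ACTG1 at −0.04 (adjusted p = 0.65), and actin genes have near-identical copies. The call of MYH9 ended without parental replicate 2, TRIM71 replicate 2 or TRIM71 replicate 3 (adjusted p up to 0.069), that of CNN1 without parental replicate 2, parental replicate 3 or TRIM71 replicate 1 (up to 0.057), and that of MYH14 with any 1 array left out except TRIM71 replicate 3 (up to 0.11). The number of rises was 4 without parental replicate 1, 1 without parental replicate 2, 2 without TRIM71 replicate 1 and 3 with any other array left out. Of the 7 rises, TPM1 alone was called in all 6 of these fits, while the tropomyosin TPM2 was called in 1, the calponin CNN2 in 1, the caldesmon CALD1 in 2 and ACTA1 in 0.

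**Figure D5:**
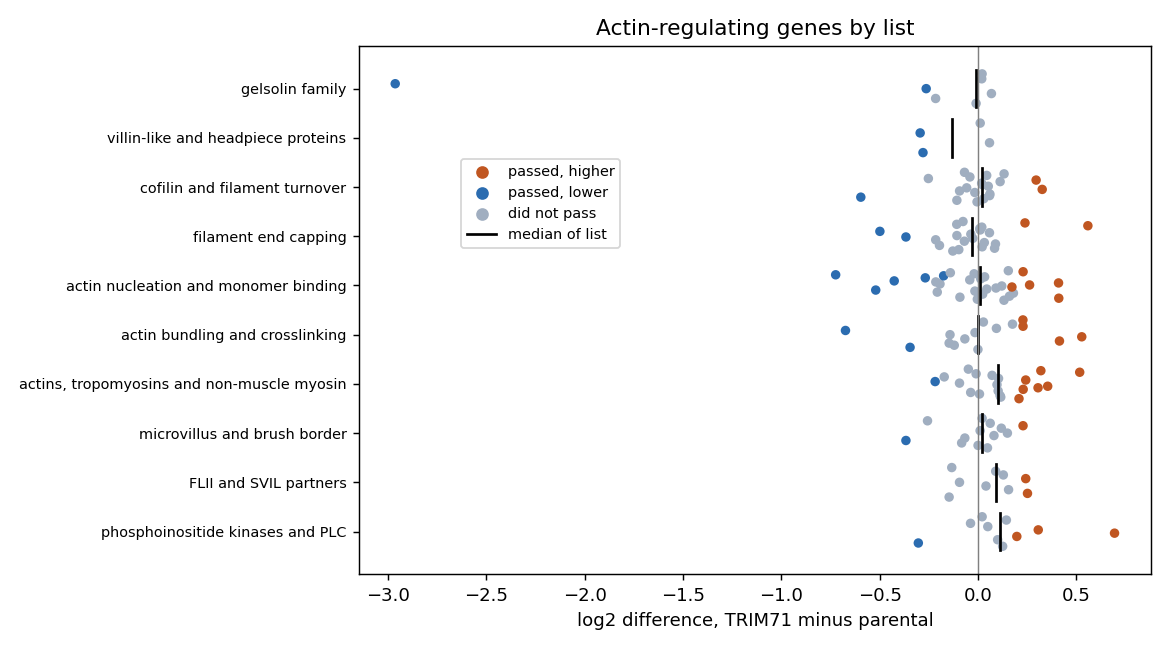
Log2 difference, TRIM71 minus parental, of each measured gene of the gelsolin family and of 9 lists of actin-regulating genes (1 point per gene; orange, passed and higher; blue, passed and lower; grey, did not pass), with the median of each list as a black line. Apart from SCIN, all points lie between −0.72 and 0.69.

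Genes tied to single members were looked at in the same way. Of 13 microvillus and brush border genes, the setting in which villin is known, 1 rose and 1 fell (median 0.02). These were the plastin PLS1 (0.23, adjusted p = 0.027), whose call ended with any 1 array left out except parental replicate 1 (adjusted p up to 0.098), and EPS8, given above. Of 9 genes for partners of FLII and SVIL, 2 rose and 0 fell (median 0.09), namely CARM1, a coactivator methyltransferase (0.25, adjusted p = 0.016), and MYH9. At an unadjusted p under 0.05 in limma, 3 of the 9 were higher and 2 lower, with no share of all genes given at that threshold. The CARM1 call ended without parental replicate 2, parental replicate 3, TRIM71 replicate 2 or TRIM71 replicate 3 (adjusted p up to 0.066). The FLII-binding proteins LRRFIP1 (0.16, adjusted p = 0.53) and LRRFIP2 (0.04, adjusted p = 0.71) did not pass.

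Phosphoinositides, which release the family's proteins from filament ends, are made and cleaved by kinases and phospholipases. Of 10 phosphoinositide kinase and phospholipase C genes, 3 rose and 1 fell (median 0.11), beside 10% and 12.2% of all genes. All 3 type I phosphatidylinositol phosphate kinases were among the rises, but of these only the PIP5K1B call held with each array left out. PIP5K1B was at 6.67, 6.57 and 6.63 on the parental arrays and 7.33, 7.47 and 7.15 on the TRIM71 arrays (0.69, adjusted p = 0.0039). PIP5K1C rose by 0.31 (adjusted p = 0.013) and PIP5K1A by 0.20 (adjusted p = 0.028), while the type II kinase PIP4K2B fell by 0.30 on the log2 scale (adjusted p = 0.0066). The PIP5K1C call ended without parental replicate 2 (adjusted p = 0.054) and the PIP5K1A call with any 1 array left out (adjusted p between 0.054 and 0.093).

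TRIM71 was 10.1-fold higher in its line (10.74 ± 0.11 against 7.40 ± 0.16, SD, n = 3), with a two-sided exact permutation p of 0.1, the smallest that 3 against 3 arrays allow. Of 9 measured markers that HEK293 cells are known to express, 8 reached the median of all values in at least 1 group. Among them the neurofilament NEFL (−1.45), the intermediate filament INA (−0.62) and the keratin KRT8 (−0.22) fell, and VIM (0.40) and CDH2 (0.42) rose. The adjusted p-values were 9.5e-05, 8e-04, 0.038, 0.0028 and 0.0027 in that order, and the KRT8 call alone ended with an array left out, which it did in all 6 fits. The sum of the log2 values of this list ran from 92.0 to 92.5 on the parental arrays and from 90.5 to 90.9 on the TRIM71 arrays. The part of this list in the results on the family was not tested. Markers of other cells that carry gelsolin family proteins were mostly below the median of all values. None of the 5 platelet or 4 endothelial markers reached the median, and 1 of 5 intestinal markers did. Of 6 leukocyte markers, 2 reached the median and fell, LCP1 and CORO1A, while PTPRC, the defining one, was at 3.53 in the parental line and 3.50 in the TRIM71 line. The sum of the log2 values of the leukocyte list ran from 37.8 to 38.3 on the parental arrays and from 36.9 to 37.0 on the TRIM71 arrays. That sum includes LCP1 (−0.67) and CORO1A (−0.60), which are also in the actin lists. The same sum for the muscle list ran from 38.4 to 39.2 and from 38.6 to 39.5. Of 6 muscle markers, 2 reached the median and 1, the actin gene ACTA1, rose by 0.21 (adjusted p = 0.044), a call that ended with any 1 array left out (adjusted p up to 0.13). In bulk RNA of this kind, fewer cells with a transcript and less of it per cell cannot be told apart.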

How the data were processed

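RNA from 3 parental and 3 TRIM71 samples was hybridised to 6 arrays, with groups and replicate numbers from the sample titles. The deposited values are log2 expression, made by the authors with RMA (affy is named too, per the submitters' processing notes); versions and the genome build are not given in the sources used here. RMA equalises the arrays, so a change in total mRNA per cell cannot be seen. Array medians lay between 6.90 and 6.97, and the number of arrays limits the precision. Of 32321 probesets, 19158 had 1 gene symbol, 1388 several and 11775 none; genes were named from the first kind, and a gene with several probesets was represented by the one with the highest mean. The 2 groups were compared by a linear model over all probesets in limma 3.58.1 under R 4.3.3 (no trend, no filter), and calls were made at a Benjamini-Hochberg adjusted p under 0.05. The procedure was tested on simulated data. The members and lists were chosen with earlier results of these data known. Named were the members, VILL, TRIM71, ACTB and ACTG1, up to 3 called genes per direction and list with the smallest adjusted p, the 3 measured genes on each side of SCIN and the 5 genes most like SCIN; CFL1, CFL2, DSTN, CAPZB, PFN1, LRRFIP1, LRRFIP2, GSN-AS1 and PTPRC were added after their values were seen. Promoter sequences are RefSeq's on GRCh38.p14. Alternatives were 3 further normalizations, the replicate block, each array left out, an intensity trend (alone or with robust estimation), a filter on dim probesets, an adjusted p under 0.01 and other treatments of probesets.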

Additional observations from a re-analysis of the deposited data

How the results depend on the processing

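The log2 difference of SCIN kept its sign and moved by less than 1 SD in all 11 alternatives that give one, between −2.99 and −2.93. The replicate block and the mean over a gene's probesets could not move it, because the groups are balanced and SCIN has 1 probeset. The log2 differences of GSN (−0.31 to −0.21), CAPG (−0.25 to −0.17) and FLII (0.04 to 0.10) kept their signs too. Those of VIL1 (−0.03 to 0.08), AVIL (−0.10 to 0.11) and SVIL (−0.001 to 0.04) lay around 0. With the replicate block, 1371 genes fell and 1019 rose (2244 and 1848 without it), 1 member was called (GSN was lost) and 11 actin-list genes rose. Deviations of same-numbered arrays correlated at 0.068, −0.19 and 0.11, and 2 of the 6 arrays correlated best with their own number. With 3 arrays per group this cannot decide whether same-numbered arrays were paired. At an adjusted p under 0.01, 1106 genes fell and 792 rose, 1 member fell and 9 actin-list genes rose. With 1 array left out, 1336 to 1709 genes fell and 979 to 1485 rose, 1 to 2 members fell, and 9 to 18 actin-list genes rose. With quantile normalization, and with 1 probeset or the mean probeset per gene, 3 members fell, CAPG being the third. In these settings 2465, 2919 and 2887 of all genes fell, in that order, beside 2244 in the main fit. The cause of these moves was not tested. Of 354 other values under alternatives, 71 moved. All 71 were among the 288 counts of calls in the lists, which have no sign to reverse. VIL1, CAPG and 1 probeset of AVIL lay below the median of all values, where small changes are harder to see.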
